A study of Rattus norvegicus with 16 samples.

Results

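Transcript levels of 10 genes that make eicosanoids were compared between 4 cell populations sorted from cultures of rat olfactory mucosa, the nasal lining that carries the sense of smell. The genes were chosen by symbol, and 11 array probes carried one of the 10 symbols, 2 of them for Ptgs1. All 10 genes were measured well enough to be tested, among 20572 genes in all. Each population had 4 biological replicates, each on its own single-colour array. TRKA-TGF cells were TRKA cells induced with TGF-a (transforming growth factor alpha). TRKA, CD90 and p75 cells came from cultures grown by a protocol they had in common. The populations are named for the surface markers of the sort, and the gene of CD90 is Thy1 and that of p75, a neurotrophin receptor, is Ngfr. Male Fischer rats were the source of all cells, and sorting by flow cytometry reached 93 to 97% purity, per the labels. Neither the age of the rats nor the number of animals per sample is stated in the labels.

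Eicosanoids are short-lived lipid signals made from arachidonic acid, which phospholipases A2 cut out of membranes. Cyclooxygenases turn arachidonic acid into prostaglandin H2, and terminal synthases turn this into prostaglandin E2, prostacyclin or thromboxane. In a separate branch, 5-lipoxygenase and its helper protein make leukotriene A4, which is passed on to leukotriene B4 or, by leukotriene C4 synthase, to the cysteinyl leukotrienes. In many tissues macrophages are a source of both classes, and fibroblasts and vessel walls of prostaglandin E2 and prostacyclin.

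Levels are log2 processed signals from which the array's own 75th percentile was subtracted, so a level of 0 is that percentile. A difference is the first population named minus the second on this log2 scale, and a call means an adjusted p under 0.05. Levels of different genes cannot be set against each other, because each probe has its own brightness. TRKA arrays were dimmer than the rest, with 51.4 to 57.5% of spots well above background, against 66.4 to 70.6% on TRKA-TGF, 70.7 to 72.4% on CD90 and 68.5 to 71.2% on p75 arrays. Replicates of TRKA correlated at r = 0.736 to 0.761, the other groups at 0.835 to 0.908. TRKA and p75 arrays shared slide 1, and TRKA-TGF and CD90 arrays slide 2. Within a slide, TRKA could thus be set against p75, and TRKA-TGF against CD90. For the remaining 4 comparisons, group cannot be told apart from slide.

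Thy1 stood at 3.44 ± 0.29 in CD90 cells and Ngfr at 3.16 ± 0.24 in p75 cells (SD, n = 4). Macrophage markers were present in both TRKA populations. The summed level of 20 macrophage genes, in multiples of the 75th percentile, was 319 to 338 in TRKA-TGF, 840 to 1058 in TRKA, 30.0 to 53.7 in CD90 and 11.1 to 19.7 in p75. Of these 20 genes, 19 were well above background on every TRKA-TGF array, 19 on every TRKA, 18 on every CD90 and 12 on every p75 array, and Cd163, a scavenger receptor, was on 0 TRKA-TGF arrays. A marker gene counted on an array if any of its probes was well above background, while its level is that of its brightest probe. Thus Ptprc counted on every CD90 array although its level there fell to −8.42. Of 11 mast cell genes on the array, each population had 5 that were well above background on all its arrays, but not the same 5. Tpsab1, Tpsb2 and Kit were among them in every population. The summed level of all 11 was 0.991 to 1.52 in TRKA-TGF, 1.48 to 9.62 in TRKA, 2.22 to 2.85 in CD90 and 1.89 to 2.70 in p75. The sum of 10 neutrophil genes was 0.124 to 0.704 in TRKA-TGF, 0.171 to 8.02 in TRKA, 0.122 to 0.632 in CD90 and 0.0606 to 0.181 in p75. Hdc of the mast cell list and S100a8 of the neutrophil list were each well above background on 3 TRKA arrays and on 0 arrays of the other populations. The mast cell genes Cpa3, Cma1 and Ms4a2 and the neutrophil genes Mpo, Elane and Cxcr2 were on 0 of the 16 arrays. In such bulk samples, fewer cells of a type and less RNA per cell cannot be told apart.

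Only Ptgs1 had an upstream and a downstream probe, so probe position was compared for that gene alone. Sequences of 4 probes of cyclooxygenase and leukotriene genes are shown, without that of the downstream Ptgs1 probe, to give the stretch each one reads. They are given 5′ to 3′ as in the array files, with positions on the rn4 build. The upstream Ptgs1 probe starts at base 460 of its target transcript and the downstream one, which stands for the gene, at base 2482, and they gave different results. In the Ptgs2 probe the capitals mark the stop codon that ends the coding sequence, and in the Ltc4s probe the ATG that opens it.
Ptgs1, upstream probe, chr3:15350683-15350742: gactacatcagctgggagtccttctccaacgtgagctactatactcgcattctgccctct
Ptgs2, chr13:64432919-64432978: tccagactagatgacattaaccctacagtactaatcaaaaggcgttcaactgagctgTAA
Alox5ap, chr12:6246233-6246292: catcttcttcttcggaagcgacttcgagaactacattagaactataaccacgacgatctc
Ltc4s, chr10:35788756-35788815: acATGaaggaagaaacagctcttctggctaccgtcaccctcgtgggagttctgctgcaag

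Tbxas1, the thromboxane synthase gene, and Alox5ap, the gene of the 5-lipoxygenase helper protein, were higher in both TRKA populations than in CD90 and p75, and Ptgs2 was lower. Pla2g5 was measured well in p75 cells and Ptgis on every array in CD90 cells. Within a slide, 6 of the 10 genes were called in TRKA versus p75 (limma, Benjamini-Hochberg), where 35.7% of all genes tested were called. Of the 6, 4 were higher, against 18.8% of all genes, and 2 lower, against 16.9%. In TRKA-TGF versus CD90, 4 were called, against 14.9% of all genes, with 2 higher (7.72% of all genes) and 2 lower (7.19%). The TGF-a comparison, TRKA-TGF versus TRKA, gave 1 call, Ptgs1 lower, where 26.4% of all genes were called and 12.9% were lower.

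Across slides, 5 genes were called in TRKA versus CD90, against 34.9% of all genes, with 3 higher (18.3% of all genes) and 2 lower (16.6%). In TRKA-TGF versus p75, 5 were called, against 15.1% of all genes, with 3 higher (7.97%) and 2 lower (7.15%). In CD90 versus p75, 2 were called, against 7.25% of all genes, with 1 higher (3.68%) and 1 lower (3.57%). The 4 arrays of one group lay wholly above or below those of the other for 2 of the 10 genes in TRKA-TGF versus TRKA, against 26.4% of all genes, for 6 in TRKA versus p75 (31.5%) and for 6 in TRKA-TGF versus CD90 (28.6%). The count was 5 in TRKA versus CD90 (30.0%), 5 in TRKA-TGF versus p75 (28.8%) and 2 in CD90 versus p75 (19.0%). In all, 23 of 60 tests of the 10 genes were called, and 8 genes were called in at least 1 comparison. Alox5 and Ltc4s were called in none. The comparisons share groups of arrays and are not independent of each other. The median difference of the 10 genes was 1.78 in TRKA versus p75, against −0.01 over all genes, and 0.99 in TRKA-TGF versus CD90, against 0.15. In TRKA-TGF versus TRKA it was 0.15, against 0.19 over all genes, and its sign was not stable: it was −0.43 with quantile normalization, −0.43 with the authors' values, −0.31 with normexp, −0.23 with a filter of 8 of 16 arrays and −0.15 without TRKA-TGF replicate 3. Over the alternatives the median ran from 0.71 to 3.73 in TRKA versus p75 and from 0.28 to 1.16 in TRKA-TGF versus CD90.

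**Figure D1:**
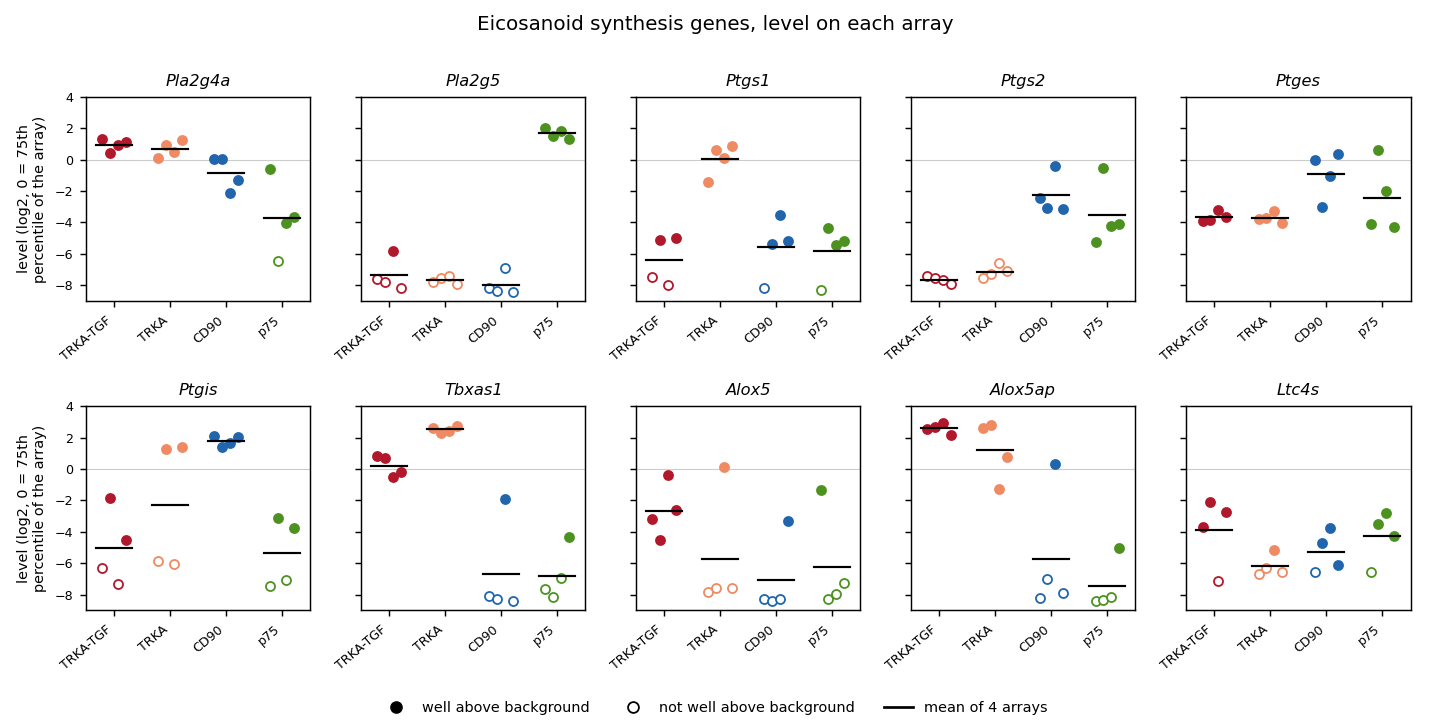
Level of each of the 10 genes on each of the 16 arrays (log2, 0 = 75th percentile of the array), by population. Filled points were well above background, open points were not, and bars are means of 4 arrays. Tbxas1 and Alox5ap stand high in TRKA-TGF and TRKA, Ptgis in CD90 and Pla2g5 in p75, and Alox5 is scattered, with 1 filled point each in TRKA, CD90 and p75.

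Pla2g4a encodes the cytosolic phospholipase A2 that releases arachidonic acid on calcium signals (chr13:64146152-64146211). Its levels were 1.32, 0.44, 0.92 and 1.14 in TRKA-TGF and 0.10, 0.92, 0.51 and 1.27 in TRKA. They were 0.05, 0.05, −2.10 and −1.31 in CD90 and −0.61, −6.47, −4.04 and −3.68 in p75, where the second array was not well above background. Both TRKA populations lay wholly above CD90 and p75, and p75 was lowest, with its first array inside the CD90 range. Against p75 the gene was higher by 4.40 in TRKA (SE 0.92, adjusted p = 0.00186) and by 4.66 in TRKA-TGF (SE 0.92, adjusted p = 0.00263; limma, Benjamini-Hochberg). Against CD90 it was not called, at 1.53 in TRKA (adjusted p = 0.22) and 1.78 in TRKA-TGF (adjusted p = 0.251, limma with Benjamini-Hochberg adjustment), although the groups did not overlap. The difference of 2.87 between CD90 and p75 was not called either (adjusted p = 0.0829) but was called without p75 replicate 1, at 3.90 (adjusted p = 0.00303, limma).

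Pla2g5 encodes a secreted phospholipase A2 (chr5:157620324-157620383). It was well above background on 1 of 4 TRKA-TGF arrays, at −5.83, and on 0 TRKA and 0 CD90 arrays. Its levels were −7.61, −7.78, −5.83 and −8.20 in TRKA-TGF, −7.95 to −7.41 in TRKA, −8.46 to −6.92 in CD90 and 1.99, 1.49, 1.86 and 1.34 in p75. Thus p75 stood apart from the other 3 populations with no overlap. It was at least 139-fold lower in TRKA than in p75 (adjusted p = 5.03e-09), and at least 226-fold lower in CD90 (adjusted p = 1.11e-08; limma, Benjamini-Hochberg). In TRKA-TGF versus p75 the difference was −9.03 (SE 0.47, adjusted p = 1.15e-08). Here "at least" sets the mean of the brighter group against the lowest signal of probes with every spot well above background on each array of the dimmer group, or the probe's own signal where that was higher. The glial marker list moved with Pla2g5. Its 12 genes, all well above background on every p75 array, had a summed level of 2.71 to 3.09 in TRKA-TGF, 0.387 to 1.10 in TRKA, 4.28 to 5.56 in CD90 and 113 to 121 in p75, and their part in the result was not tested.

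Ptgs1, which encodes cyclooxygenase 1, the form most tissues make constantly, was high in TRKA cells by its downstream probe (chr3:15365115-15365174). The levels were −7.49, −5.12, −7.97 and −4.98 in TRKA-TGF and −1.40, 0.60, 0.12 and 0.89 in TRKA. They were −8.17, −5.40, −3.54 and −5.20 in CD90 and −8.28, −4.35, −5.46 and −5.17 in p75. All 4 TRKA arrays lay above the other 12, which overlapped each other, and the probe was well above background on 2 TRKA-TGF, 4 TRKA, 3 CD90 and 3 p75 arrays. Ptgs1 was lower in TRKA-TGF than in TRKA, at −6.45 (SE 1.07, adjusted p = 0.000552, limma with Benjamini-Hochberg adjustment). It was higher in TRKA than in p75 by 5.87 (SE 1.07, adjusted p = 0.000684) and than in CD90 by 5.63 (SE 1.07, adjusted p = 0.000929; limma, Benjamini-Hochberg). TRKA-TGF did not differ by the test from CD90 (−0.81, adjusted p = 0.721) or p75 (−0.58, adjusted p = 0.824, limma).

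The upstream Ptgs1 probe did not show these differences. Its levels were −7.47, −7.57, −0.51 and −8.17 in TRKA-TGF and −7.80, −2.63, −7.34 and −7.94 in TRKA. In CD90 they were −2.19, −3.08, −8.22 and −3.88, and in p75 −8.24, −8.24, −7.99 and −4.94. It was well above background on 1 TRKA-TGF, 1 TRKA, 3 CD90 and 1 p75 array, so single arrays carried the signal in 3 of the populations. With this probe standing for the gene, a choice made after seeing the data, the difference was 0.50 in TRKA-TGF versus TRKA (adjusted p = 0.875), 0.93 in TRKA versus p75 (adjusted p = 0.726) and −2.08 in TRKA versus CD90 (adjusted p = 0.407; limma, Benjamini-Hochberg). The 3 Ptgs1 calls therefore rest on 1 of 2 probes. With the mean of both probes the TRKA versus CD90 call was lost as well (1.78, adjusted p = 0.129, limma).

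Ptgs2, which encodes the inducible cyclooxygenase 2, was not well above background in either TRKA population. Its levels were −7.39, −7.53, −7.69 and −7.93 in TRKA-TGF and −7.56, −7.30, −6.59 and −7.12 in TRKA. They were −2.44, −3.06, −0.39 and −3.13 in CD90 and −5.25, −0.56, −4.25 and −4.10 in p75, all well above background. No TRKA-TGF or TRKA array reached the lowest CD90 or p75 array. Ptgs2 was at least 11.3-fold lower in TRKA-TGF than in CD90 (adjusted p = 0.000466) and at least 3.77-fold lower in TRKA than in p75 (adjusted p = 0.00398; limma, Benjamini-Hochberg). Across slides it was at least 9.19-fold lower in TRKA than in CD90 (adjusted p = 0.000408) and at least 4.64-fold lower in TRKA-TGF than in p75 (adjusted p = 0.00345; limma, Benjamini-Hochberg). With normexp background correction only the call in TRKA-TGF versus CD90 held (−2.02, adjusted p = 0.0327), while TRKA versus p75 (−0.75, adjusted p = 0.334), TRKA versus CD90 (−1.55, adjusted p = 0.0588) and TRKA-TGF versus p75 (−1.22, adjusted p = 0.199) were not called by limma.

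**Figure D2:**
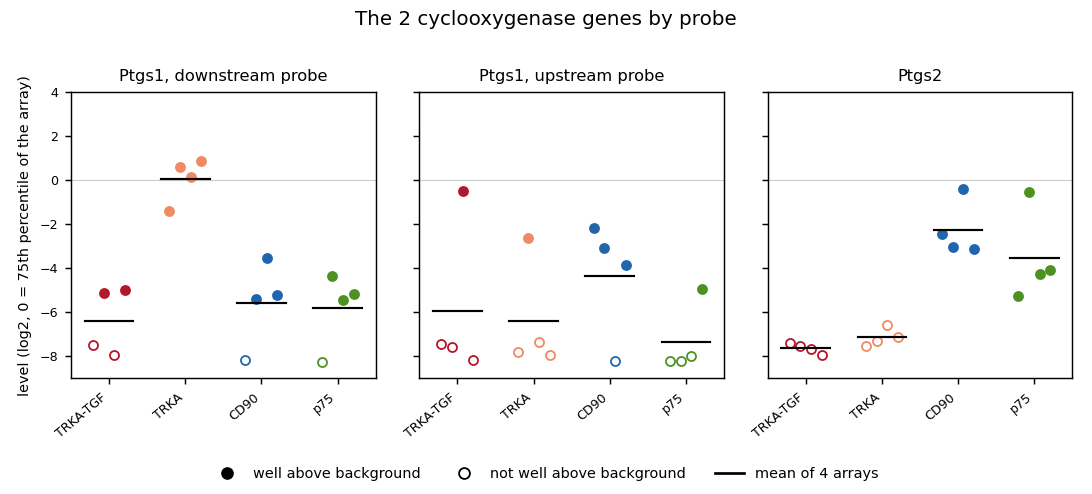
Level of the downstream and the upstream Ptgs1 probe and of Ptgs2 on each array (log2, 0 = 75th percentile of the array). Filled points were well above background, open points were not, and bars are means of 4 arrays. The TRKA arrays lie between −1.40 and 0.89 with the downstream Ptgs1 probe, but 3 of 4 are at −7.34 or below with the upstream one, and Ptgs2 has open points only in both TRKA populations.

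Ptges encodes the inducible microsomal prostaglandin E synthase, which works with cyclooxygenase 2 (chr3:9946741-9946800). It was well above background on all 16 arrays. Levels were −3.92, −3.82, −3.21 and −3.66 in TRKA-TGF and −3.75, −3.73, −3.24 and −4.03 in TRKA, so the 8 arrays lay within a narrow band. They were −0.03, −3.02, −1.05 and 0.36 in CD90 and −4.10, 0.63, −2.01 and −4.29 in p75, a wider spread, with the p75 range covering both TRKA groups. TRKA was lower than CD90 by the test, at −2.75 (SE 0.94, adjusted p = 0.0356, limma with Benjamini-Hochberg adjustment). This call was lost with quantile normalization (−1.43, adjusted p = 0.273) and on leaving out any single array of the 2 groups other than TRKA replicate 3 or CD90 replicate 2 (adjusted p = 0.0606 to 0.101, limma). TRKA-TGF versus CD90, within a slide, was −2.72 and not called (adjusted p = 0.0723), and it was called without CD90 replicate 2 (−3.41, adjusted p = 0.0269, limma).

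Ptgis, the prostacyclin synthase gene, was measured on every CD90 array (chr3:158360438-158360497). Levels were −6.30, −1.86, −7.33 and −4.54 in TRKA-TGF and −5.84, 1.24, −6.04 and 1.42 in TRKA. They were 2.07, 1.40, 1.68 and 2.02 in CD90 and −7.45, −3.13, −7.09 and −3.78 in p75. In TRKA-TGF, TRKA and p75 alike, replicates 2 and 4 were well above background and replicates 1 and 3 were not, and TRKA replicates 2 and 4 came close to the CD90 levels. Ptgis was lower in TRKA-TGF than in CD90, at −6.80 (SE 1.78, adjusted p = 0.0186, limma with Benjamini-Hochberg adjustment), a call lost without TRKA-TGF replicate 1 (adjusted p = 0.0551) or 3 (adjusted p = 0.0621). It was higher in CD90 than in p75, at 7.16 (SE 1.78, adjusted p = 0.0249), a call lost without CD90 replicate 1, 3 or 4 or p75 replicate 1 or 3 (adjusted p = 0.0554 to 0.0781, limma). TRKA versus CD90 was −4.10 and not called (adjusted p = 0.0914), and it was called without TRKA replicate 2 (−5.28, adjusted p = 0.0371) or 4 (−5.34, adjusted p = 0.033, limma). The summed level of 10 fibroblast markers was 4.40 to 14.7 in TRKA-TGF, 106, 148, 145 and 154 on the 4 TRKA arrays, 464 to 530 in CD90 and 212 to 231 in p75. In TRKA, 4 of the 10 markers were well above background on every array, among them Col1a1 with a mean level of 6.89. The other extreme was 2 markers, Dcn and Lum, that were not well above background on any TRKA array. The part of fibroblast content in the Ptgis result was not tested.

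Tbxas1 separated both TRKA populations from CD90 and p75 without overlap (chr4:66676913-66677395, a 60-base probe over 483 bases of the genome, so that it crosses an intron). Thromboxane synthase makes thromboxane A2, which constricts vessels and activates platelets. Levels were 0.81, 0.73, −0.53 and −0.20 in TRKA-TGF and 2.64, 2.32, 2.39 and 2.77 in TRKA. They were −8.11, −8.27, −1.91 and −8.41 in CD90 and −7.67, −8.18, −6.95 and −4.36 in p75, with 1 array of each well above background. TRKA lay wholly above TRKA-TGF, and both lay above every CD90 and p75 array. The difference was 9.32 in TRKA versus p75 (SE 1.23, adjusted p = 5.05e-05) and 6.88 in TRKA-TGF versus CD90 (SE 1.23, adjusted p = 0.00142; limma, Benjamini-Hochberg). Across slides it was 9.20 in TRKA versus CD90 (adjusted p = 5.41e-05), and TRKA-TGF, with a mean of 0.20, was higher than p75, with a mean of −6.79 (adjusted p = 0.00116; limma, Benjamini-Hochberg). All 4 differences were called in every alternative that was run. Their sizes rest mainly on levels not well above background in CD90 and p75, on 3 of 4 arrays each, and are not exact.

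TRKA-TGF cells had a lower mean Tbxas1 level than TRKA cells, but the difference of −2.33 was not called (SE 1.23, adjusted p = 0.187). It was called in a fit of these 2 groups alone, whose spread is small (SE 0.38, adjusted p = 0.00589), and with normexp background correction (−2.24, adjusted p = 0.00394; limma, Benjamini-Hochberg). The summed macrophage level was also lower, at 319 to 338 in TRKA-TGF and 840 to 1058 in TRKA, but the 20 genes did not all run that way. Of them 13 had a lower mean in TRKA-TGF, among them C1qa (4.33 in TRKA-TGF, 7.04 in TRKA), and 7 a higher one, among them Ptprc (2.29 in TRKA-TGF, −0.62 in TRKA) and Mrc1 (2.96 in TRKA-TGF, 1.99 in TRKA). The sum of 8 platelet and megakaryocyte genes was 14.7 to 15.8 in TRKA-TGF, 51.9 to 69.9 in TRKA, 0.739 to 2.18 in CD90 and 0.465 to 2.17 in p75. Of these 8, 4 had a lower mean in TRKA-TGF than in TRKA, among them Pf4 (3.52 in TRKA-TGF, 5.89 in TRKA), which macrophages can also express, and 4 a higher one, among them Treml1 (0.45 in TRKA-TGF, −1.42 in TRKA). Ppbp was on 0 of the 16 arrays. The part of either cell type in the Tbxas1 difference was not tested.

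The promoters of Tbxas1 and Ptgs2 are shown because these genes moved in opposite directions in both comparisons made within a slide. Each is the 250 bases before the transcript start, from RefSeq on the GRCr8 build and on the gene's strand. Capitals mark every match, on either strand, to GAGGAA, which is the core that the myeloid factor PU.1 binds, to TATAAA, which is the element that places the start of many genes, or to GGGCGG, known as the GC box.
Tbxas1, chr4:68631635-68631884, plus strand: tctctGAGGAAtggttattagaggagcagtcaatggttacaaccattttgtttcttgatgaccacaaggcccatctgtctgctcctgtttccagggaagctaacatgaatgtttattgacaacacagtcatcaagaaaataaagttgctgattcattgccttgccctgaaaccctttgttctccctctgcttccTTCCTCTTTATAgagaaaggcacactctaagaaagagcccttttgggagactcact
Ptgs2, chr13:64713813-64714062, plus strand: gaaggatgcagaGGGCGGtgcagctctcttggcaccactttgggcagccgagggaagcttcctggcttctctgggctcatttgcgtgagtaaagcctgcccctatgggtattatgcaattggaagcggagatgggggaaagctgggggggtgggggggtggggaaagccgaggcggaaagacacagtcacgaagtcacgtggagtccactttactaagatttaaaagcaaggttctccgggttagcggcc

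The Tbxas1 promoter held GAGGAA 245 bases before the start on the gene's strand and 56 bases before it on the other strand, where TATAAA followed directly, 50 bases before the start. The Ptgs2 promoter held GGGCGG 238 bases before the start. Of 33469 rat promoters of this length, 23.3% held GAGGAA, 12.9% TATAAA and 30.5% GGGCGG, so each match is common. Alox5ap and Ptgis had no promoter entry in the table used. A match describes the letters and is no measure of binding.

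Alox5 encodes 5-lipoxygenase, the enzyme that starts leukotriene synthesis (chr4:152610831-152612409, a 60-base probe over 1579 bases of the genome). Its levels were −3.16, −4.53, −0.40 and −2.64 in TRKA-TGF and −7.84, −7.57, 0.13 and −7.61 in TRKA. They were −8.26, −8.43, −8.31 and −3.33 in CD90 and −1.31, −8.31, −7.95 and −7.29 in p75. TRKA-TGF was the one population with all 4 arrays well above background, and the others had 1 array each, a different replicate in each. The gene was not called in any comparison. TRKA-TGF minus TRKA was 3.04 (SE 1.99, adjusted p = 0.288), and 4.99 without TRKA replicate 3, where it was called (adjusted p = 0.045, limma with Benjamini-Hochberg adjustment). TRKA-TGF minus CD90 was 4.40 (SE 1.99, adjusted p = 0.18, limma).

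Alox5ap encodes FLAP, the membrane protein that hands arachidonic acid to 5-lipoxygenase. Its levels were 2.54, 2.70, 2.94 and 2.14 in TRKA-TGF and 2.63, 2.77, −1.25 and 0.73 in TRKA, all well above background. They were −8.25, −7.02, 0.31 and −7.89 in CD90 and −8.39, −8.35, −8.13 and −5.04 in p75, with 1 array of each well above background. TRKA-TGF and TRKA overlapped, TRKA-TGF lay above every CD90 and p75 array, and CD90 replicate 3 lay above TRKA replicate 3. The difference was 8.70 in TRKA versus p75 (SE 1.59, adjusted p = 0.000717) and 8.29 in TRKA-TGF versus CD90 (SE 1.59, adjusted p = 0.00244; limma, Benjamini-Hochberg). It was 6.93 in TRKA versus CD90 (adjusted p = 0.00377) and 10.06 in TRKA-TGF versus p75 (adjusted p = 0.000501; limma, Benjamini-Hochberg). These 4 were called in every alternative that was run, but their sizes too rest on CD90 and p75 groups in which 3 of 4 arrays were not well above background. TRKA-TGF minus TRKA was 1.36 and not called (SE 1.59, adjusted p = 0.575, limma).

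Ltc4s encodes leukotriene C4 synthase, which joins leukotriene A4 to glutathione. Its levels were −3.70, −2.12, −7.12 and −2.74 in TRKA-TGF and −6.67, −6.29, −5.17 and −6.59 in TRKA. They were −6.54, −4.72, −3.77 and −6.12 in CD90 and −6.59, −3.50, −2.79 and −4.26 in p75. It was well above background on 3 arrays each of TRKA-TGF, CD90 and p75 and on 1 TRKA array, and all groups overlapped. No comparison was called. TRKA-TGF minus TRKA was 2.26 (SE 1.05, adjusted p = 0.134), and 3.33 without TRKA-TGF replicate 3, where it was called (adjusted p = 0.0165, limma with Benjamini-Hochberg adjustment). TRKA minus p75 was −1.89 (SE 1.05, adjusted p = 0.181, limma).

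**Figure D3:**
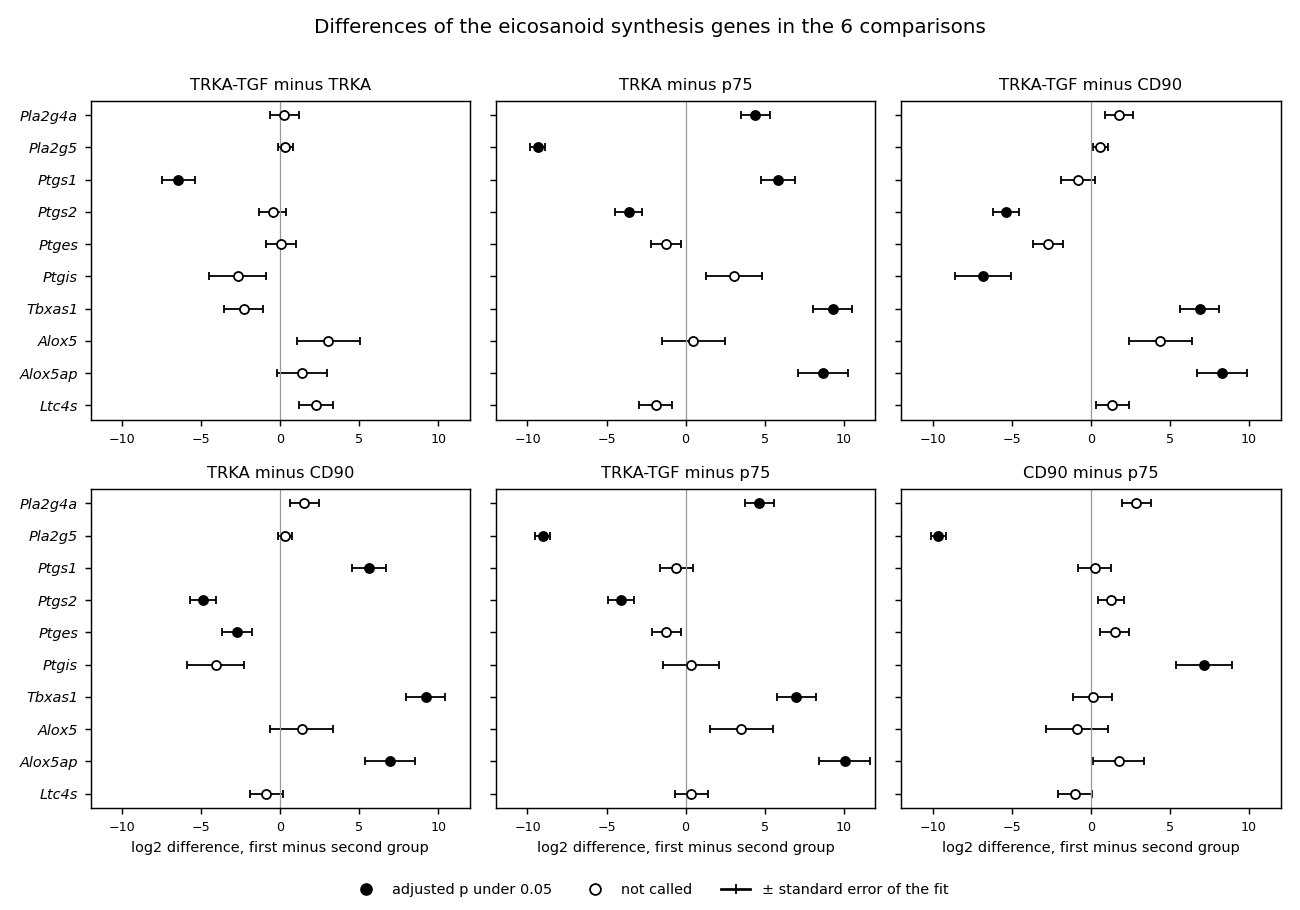
Log2 difference of each of the 10 genes, first minus second population, in the 6 comparisons. Bars are the standard error of the fit, and filled points had an adjusted p under 0.05. Tbxas1 and Alox5ap lie right of 0 and filled in the 4 comparisons of a TRKA population with CD90 or p75, Ptgs2 lies left of 0 and filled in the same 4, and Ptgs1 is the one filled point in TRKA-TGF minus TRKA.

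The genes whose levels ran most like those of the 10 over the 16 arrays were sought among 14108 named genes. These correlations share the arrays and the group differences and are given as descriptions. Tbxas1 ran most like the glycolysis gene Pkm (r = 0.957), the macrophage sialoadhesin gene Siglec1 (0.95) and Aplp2 (0.947). Alox5ap also ran most like Siglec1 (r = 0.957), followed by the leukocyte genes Cd37 (0.956) and Slamf8 (0.948). Among the genes most like Pla2g4a were Gpnmb (r = 0.916) and Ms4a6a (0.913). Ptgs1, by its downstream probe, ran most like Stoml2 (r = 0.918), the chemokine gene Cxcl2 (0.911) and Prr3 (0.909).

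Ptgs2 ran most like Ttc23 (r = 0.938), Lpin3 (0.933) and Tcf7l1 (0.93). Ptges ran most like the stem cell factor gene Kitlg (r = 0.901), Il25 (0.899) and Rbpms2 (0.896), and Ptgis like Esyt2 (0.892), Gsc (0.868) and Ankrd65 (0.865). Pla2g5 had the closest partners of the 10 genes, Ajap1 (r = 0.989), Tmem117 (0.988) and Lrrc4c (0.988). The loosest were those of Alox5, led by Dnajc28 (r = 0.84), Pklr (0.812) and Adap1 (0.789), and of Ltc4s, among them Gpr182 (0.791) and Ing5 (0.754).

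Other genes of the pathway were counted from 5 lists with 69 genes, of which 68 were on the array and 52 were tested. Array counts of these genes take in any of their probes that was well above background, while the test used the brightest kept probe. In TRKA versus p75, 14 of the 52 were higher (26.9%, against 18.8% of all genes) and 1 lower (1.92%, against 16.9%), with a median of 0.05, against −0.01 over all genes. The leukotriene side gave 4 of 14 enzymes higher, among them Dpep2, a dipeptidase that turns leukotriene D4 into E4 (7.57, adjusted p = 0.000268), Mgst2, which can make leukotriene C4 (4.69, adjusted p = 0.000282), and Lta4h, which makes leukotriene B4 (3.61, adjusted p = 7.71e-05; limma, Benjamini-Hochberg). The tested Dpep2 probe stood at −6.47 on p75 replicate 2, below the lowest level well above background on that array, −6.10. The Dpep2 size is therefore not exact. Of 11 prostanoid enzymes and transporters 4 were higher, among them Hpgds, the hematopoietic prostaglandin D synthase (at least 30.8-fold, adjusted p = 0.00248), Akr1b8 (4.00, adjusted p = 1.71e-07) and the carbonyl reductase gene Cbr1 (1.71, adjusted p = 0.0161; limma). On TRKA replicate 2 Hpgds was not well above background, at −6.95, and that array is part of the TRKA mean. Of 7 prostanoid receptors 2 were higher, Ptger2, a receptor of prostaglandin E2 (at least 133-fold, adjusted p = 0.000623), and Ptgdr, a receptor of prostaglandin D2 (1.12, adjusted p = 0.00334, limma). Of 15 phospholipases and related genes 4 were higher and 1 lower. Pla2g7, which breaks down platelet-activating factor, was higher by 6.63 (adjusted p = 1.70e-06), the lysosomal Pla2g15 by 4.45 (adjusted p = 4.11e-05), and Pla2g12a, well above background on 2 TRKA and 4 p75 arrays, was lower (adjusted p = 0.0335; limma, Benjamini-Hochberg). None of the 5 mediator receptors tested was called.

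In TRKA-TGF versus CD90, 8 of the 52 were higher (15.4%, against 7.72% of all genes) and 7 lower (13.5%, against 7.19%), with a median of 0.37, against 0.15 over all genes. The lower count was 4 without TRKA-TGF replicate 1 or 2 or CD90 replicate 1 or 3, and 4 with a filter of 8 of 16 arrays. Hpgds was at least 125-fold higher (adjusted p = 0.000949), Ptger2, on 4 TRKA-TGF arrays and 1 CD90 array, was higher (adjusted p = 0.00521), as were Dpep2 by 4.97 (adjusted p = 0.0131), Mgst1, a microsomal glutathione transferase gene, by 4.68 (adjusted p = 0.00104), Pla2g7 by 4.52 (adjusted p = 0.000128) and Pla2g15 by 2.79 (adjusted p = 0.00396; limma, Benjamini-Hochberg). The lower genes included Ptgfr, the prostaglandin F receptor (at least 22.3-fold, adjusted p = 1.45e-08), and the secreted phospholipase gene Pla2g2a (at least 27.1-fold, adjusted p = 0.0371; limma, Benjamini-Hochberg), both on 0 TRKA-TGF and 4 CD90 arrays. Ptgfr was well above background on CD90 arrays only, so it passed the filter through the group where it was high. Its p-values here and in the other comparisons with CD90 describe that pattern and are no independent support for it. The prostaglandin transporter gene Slco2a1, on 1 TRKA-TGF and 4 CD90 arrays, was lower (adjusted p = 0.00225), as were Ptgr1, a prostaglandin reductase gene on 2 TRKA-TGF and 4 CD90 arrays (adjusted p = 0.0356), and Ltb4r2, a leukotriene B4 receptor gene on 1 TRKA-TGF and 3 CD90 arrays (adjusted p = 0.0358; limma, Benjamini-Hochberg). No size is given for other pathway genes well above background, by any of their probes, on only some arrays of the dimmer population. It would rest on levels near background.

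In TRKA-TGF versus TRKA, 7 of the 52 were higher (13.5%, against 13.5% of all genes) and 7 lower (13.5%, against 12.9%), shares near those of all genes. The median was 0.23, against 0.19 over all genes. The counts moved with the settings. With normexp 4 were higher and 9 lower and the median was −0.16. It was −0.08 over the 68 genes with no filter on dim probes and −0.04 without TRKA replicate 2, and the higher count fell to 3 without TRKA-TGF replicate 2 or with array weights. Lta4h averaged 0.49 in TRKA-TGF and 4.49 in TRKA and was lower by the test (adjusted p = 6.63e-05), as was Cotl1, which binds 5-lipoxygenase (−3.36, adjusted p = 0.00161; limma, Benjamini-Hochberg). Mgst1 was higher by 3.70 (adjusted p = 0.00383, limma). Ptger4, another prostaglandin E2 receptor, was well above background on 4 TRKA-TGF arrays and 1 TRKA array and was higher (adjusted p = 0.00287), while Ptgdr was lower (−0.78, adjusted p = 0.0361; limma, Benjamini-Hochberg). The transporter gene Abcc4 was higher (adjusted p = 0.0108, limma), on 4 TRKA-TGF and 2 TRKA arrays by any of its probes. The tested Abcc4 probe stood at −7.78 to −7.32 in TRKA, below the lowest levels well above background on those arrays, −5.72 to −5.16. The prostaglandin E synthase gene Ptges2, on 4 TRKA-TGF and 3 TRKA arrays, was higher too (adjusted p = 0.0435, limma). Cbr1 was lower (−2.37, adjusted p = 0.00313, limma with Benjamini-Hochberg adjustment). Mgll, whose lipase frees arachidonic acid from an endocannabinoid, was at least 26.4-fold higher (adjusted p = 0.0203), and Plaat3, a phospholipase gene, was lower (−1.99, adjusted p = 0.00218; limma, Benjamini-Hochberg). Of the mediator receptors, Gpr18, on 4 TRKA-TGF arrays and 1 TRKA array, was higher (adjusted p = 0.0438), as was the chemerin receptor gene Cmklr1 (2.31, adjusted p = 0.0435; limma, Benjamini-Hochberg). Some of these calls were not stable. Over 19 alternatives Gpr18 was called in 5, Cmklr1 in 8, Ptges2 in 8 and Ptgdr in 10. Mgll and Abcc4 were called in 17, and Lta4h, Cotl1, Mgst1, Ptger4, Cbr1 and Plaat3 in all 19.

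Across slides, TRKA versus CD90 gave 14 higher (26.9%, against 18.3% of all genes) and 4 lower (7.69%, against 16.6%). Among the higher were Dpep2 (6.10, adjusted p = 0.00143), Cotl1 (4.99, adjusted p = 4.06e-05), Lta4h (4.37, adjusted p = 1.48e-05), Pla2g7 (5.19, adjusted p = 1.65e-05), Pla2g15 (4.03, adjusted p = 8.97e-05), Hpgds (at least 32.4-fold, adjusted p = 0.00294) and Ptgdr (0.84, adjusted p = 0.019; limma, Benjamini-Hochberg). Ptger2, on 4 TRKA arrays and 1 CD90 array, was higher as well (adjusted p = 0.00516, limma). The TRKA mean of Hpgds again took in replicate 2, at −6.95 and not well above background. The 4 lower genes were Slco2a1 (at least 45.4-fold, adjusted p = 0.000394), Ptgfr (at least 18.1-fold, adjusted p = 8.82e-09), Acsl3, an acyl-CoA synthetase gene (−0.83, adjusted p = 0.0221), and Ptgr1, on 1 TRKA and 4 CD90 arrays (adjusted p = 0.00718; limma, Benjamini-Hochberg).

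TRKA-TGF versus p75 gave 11 higher (21.2%, against 7.97% of all genes) and 2 lower (3.85%, against 7.15%). Ptger2 was at least 243-fold and Hpgds at least 118-fold higher (adjusted p = 0.000671 and 0.000742), and Ptger4, on 4 TRKA-TGF arrays and 1 p75 array, was higher (adjusted p = 0.00309; limma, Benjamini-Hochberg). Dpep2 was higher by 6.44 (adjusted p = 0.00208), Pla2g7 by 5.96 (adjusted p = 8.65e-06), Akr1b8 by 4.59 (adjusted p = 7.03e-08), Cmklr1 by 4.16 (adjusted p = 0.00192), Mgst2 by 3.77 (adjusted p = 0.00325), Mgst1 by 3.28 (adjusted p = 0.0118) and Pla2g15 by 3.20 (adjusted p = 0.00134; limma, Benjamini-Hochberg). The Dpep2 size again rests in part on p75 replicate 2, where its probe stood near background at −6.47. The 2 lower genes were Plaat3 (−2.04, adjusted p = 0.00248) and Ptgfrn, which encodes an inhibitor of the prostaglandin F receptor (−1.41, adjusted p = 0.0332; limma, Benjamini-Hochberg).

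CD90 versus p75 gave 5 higher (9.62%, against 3.68% of all genes) and 1 lower (1.92%, against 3.57%). The higher ones were Ptgfr (at least 27.8-fold, adjusted p = 1.06e-08), Cmklr1 (2.92, adjusted p = 0.0372), Anxa1, the annexin A1 gene (2.79, adjusted p = 0.00031), Mgst2 (2.74, adjusted p = 0.0453) and Slco2a1, on 4 CD90 and 2 p75 arrays (adjusted p = 0.0149; limma, Benjamini-Hochberg). Of these, Ptgfr was kept for testing only through its CD90 arrays. The lower one was the lipid peroxide reductase gene Gpx4 (−1.21, adjusted p = 0.00303, limma). The higher count was 2 with a filter of 8 of 16 arrays, 3 with the replicate block, 2 without p75 replicate 2 and 3 without p75 replicate 4 or CD90 replicate 1, 3 or 4. Leaving out single arrays gave 0 to 3 lower genes in TRKA versus p75, 5 to 7 in TRKA versus CD90 and 1 to 3 in TRKA-TGF versus p75. Of the 81 calls of these genes over the 6 comparisons, 56 held in every alternative that gave a value, and 0 had the other sign in any.

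**Figure D4:**
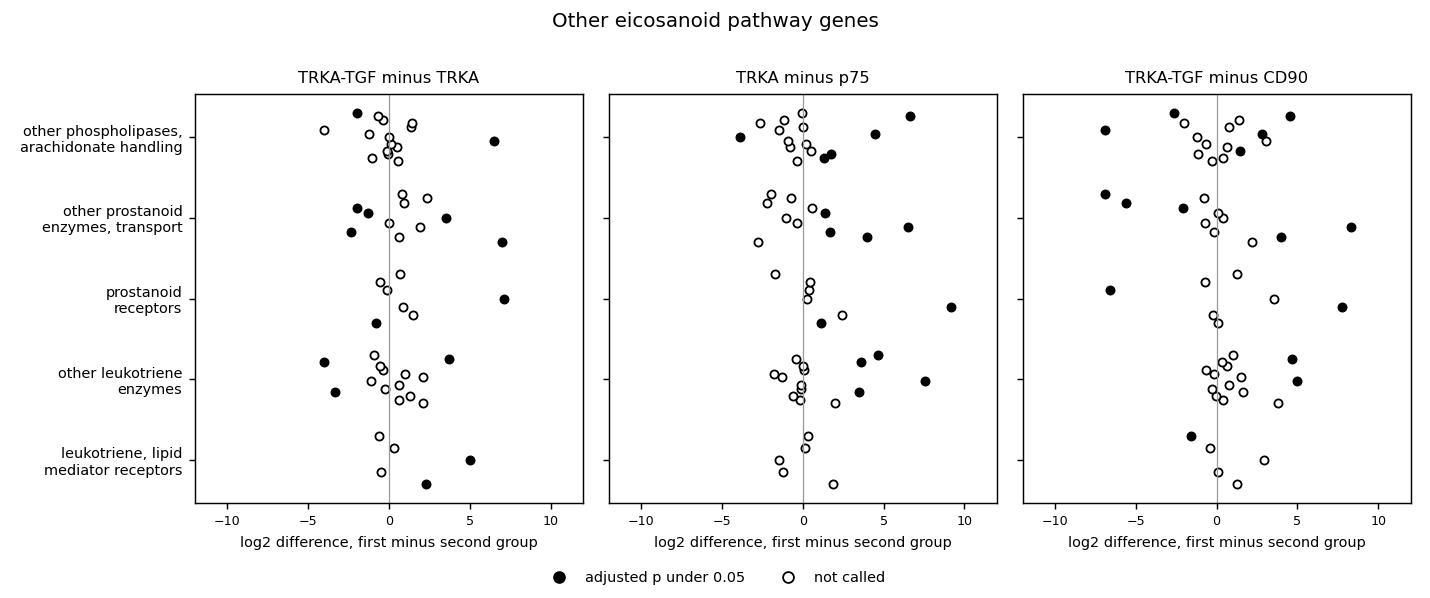
Log2 difference, first minus second population, of the 52 other pathway genes tested, in 5 rows by list, for TRKA-TGF minus TRKA and the 2 comparisons made within a slide. Filled points had an adjusted p under 0.05. In TRKA minus p75 the filled points lie right of 0 but for Pla2g12a, and in the other panels they lie on both sides.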

How the data were processed

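Levels were compared in 16 arrays, 4 each of TRKA-TGF, TRKA, CD90 and p75, grouped by sample title. RNA was amplified by global PCR and labelled with Cy3, per the labels' protocols. The authors deposited scanner files with spot intensity on a linear scale, background-subtracted per the file headers (Agilent Feature Extraction 10.7.3.1, and 10.5 per the submitters' processing notes; build rn4), and a table of log2 values that was used as an alternative only. The number of arrays limits the precision.

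Outlier spots were left out, spots of a probe averaged, and log2 signals set to the array's 75th percentile over 30367 probes. Probes well above background, in at least 0.5 of their spots, on at least 4 of 16 arrays were kept. A gene could thus be kept through the group where it was high, as Pla2g5 was through p75 and Ptgfr through CD90. The brightest kept probe stood for a gene (20572 genes). Limma 3.58.1 in R 4.3.3 was fitted to all arrays with 1 mean per group and empirical Bayes moderation. P-values were adjusted by Benjamini-Hochberg over all genes, and the fit was tested on simulated data. The 10 genes, the pathway lists and the marker lists were chosen with earlier results of these data known. All 10 genes are named in every comparison. Of other pathway genes the called ones with the largest change in each direction are named, at most 3 a list and comparison, and of genes with like patterns up to 3 for each of the 10. Some items are not reported here. Alternatives were quantile normalization, normexp (offset 50), the authors' log2 values, other filters and probe rules, trended variance, array weights, 2-group fits, a replicate block and leaving out each array. P-values measure the spread between samples that the labels call biological replicates. TRKA-TGF arrays lay in row 1 and CD90 arrays in row 2 of their slide, p75 arrays in row 1 and TRKA arrays in row 2 of theirs, so row and group cannot be told apart.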

Additional observations from a re-analysis of the deposited data

Results flagged for a closer look

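Single arrays stood far from the other 3 of their group for 4 of the probes, 9 of 44 groups of 4 in all. No chance rate is given, because levels not well above background lie close together and make a single brighter array stand far off. The measure is the gap from the extreme array to its nearest neighbour as a share of the group's range. In each case the far array was high and well above background and the other 3 were not.

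Tbxas1 stood at −1.91 in CD90 replicate 3, against −8.41 to −8.11 on the other CD90 arrays. Alox5ap stood at 0.31 on the same array, against −8.25 to −7.02, and at −5.04 in p75 replicate 4, against −8.39 to −8.13. The summed macrophage level of CD90 replicate 3 was 32.8, within the CD90 range of 30.0 to 53.7, and that of p75 replicate 4 was 11.1, the lowest of its group.

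Alox5 stood at 0.13 in TRKA replicate 3, against −7.84 to −7.57, at −3.33 in CD90 replicate 4, against −8.43 to −8.26, and at −1.31 in p75 replicate 1, against −8.31 to −7.29. The upstream Ptgs1 probe stood at −0.51 in TRKA-TGF replicate 3, against −8.17 to −7.47, at −2.63 in TRKA replicate 2, against −7.94 to −7.34, and at −4.94 in p75 replicate 4, against −8.24 to −7.99.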

How the results depend on the processing

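Of the 23 called differences of the 10 genes, 16 kept their direction and call in every alternative that gave a value (the upstream Ptgs1 probe aside), and 8 other differences were called in at least 1 alternative only. The Ptgs1 differences reversed with the upstream probe, an alternative chosen after seeing the data, to 0.50 in TRKA-TGF versus TRKA and −2.08 in TRKA versus CD90, which left 0 of the 10 genes called in TRKA-TGF versus TRKA. That comparison had 2 called with normexp and 2 in a fit of its 2 groups alone, in each case Ptgs1 and Tbxas1. CD90 versus p75 had 1 called when a probe had to be well above background on 8 of 16 arrays, a filter that leaves out Pla2g5. Leaving out single arrays gave 1 to 2 genes called in TRKA-TGF versus TRKA, 6 in TRKA versus p75, 3 to 5 in TRKA-TGF versus CD90, 4 to 5 in TRKA versus CD90, 5 in TRKA-TGF versus p75 and 1 to 3 in CD90 versus p75. Pairing of samples by replicate number remained unsettled. Deviations from the group means correlated at r = −0.034 to 0.043 over 24 same-numbered pairs. Of 48 array-by-comparison checks, 18 found the best partner under the array's own number. In TRKA-TGF versus TRKA every same-numbered pair was the best match for both its arrays, at r = 0.012 to 0.043. In each of the other comparisons this failed for some pairs. With the replicate number as a block, 1, 6, 4, 5, 5 and 2 of the genes were called in the order TRKA-TGF versus TRKA, TRKA versus p75, TRKA-TGF versus CD90, TRKA versus CD90, TRKA-TGF versus p75 and CD90 versus p75. In TRKA versus CD90 the block lost Ptges (adjusted p = 0.0652, limma) and gained Ptgis (adjusted p = 0.0262, limma). Scaling moved the median of all genes in TRKA versus p75, where it was −0.01, 0.24 with quantile normalization and 0.37 with normexp, and the share of calls that were higher, 52.7%, 60.4% and 67.0%. In TRKA-TGF versus TRKA that share was 51.1%, 39.8% and 38.8%, and in TRKA versus CD90 52.3%, 59.9% and 62.7%. Levels near background have no order, and of the 4 dim TRKA arrays Pla2g5 and Ptgs2 were well above it on 0, Alox5 and Ltc4s on 1 and Ptgis on 2. Within a slide, row and group cannot be told apart.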
